A study of Mus musculus with 2 samples.

Results

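Mir21a is the mouse gene for the microRNA (miRNA) miR-21, and it lies inside the gene Vmp1. It was taken from the count tables by its Ensembl identifier, ENSMUSG00000065455.1, whose GENCODE M21 symbol is Mir21a, and is 1 of 2202 miRNA genes counted. The tables come from small RNA sequencing of total RNA from adrenal glands of female B6CASTF1/J mice aged 18 to 20 months; this strain is the F1 cross between C57BL/6J and CAST/EiJ. No other treatment, allele, age or sex is among the samples, so they form 1 group of 2 biological replicates. The labels number the females separately but place both glands under the same donor record. The spread given below is therefore the spread between these samples.

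A miRNA is cut from a hairpin-shaped precursor and guides Argonaute proteins to messenger RNAs, mostly through its seed, bases 2 to 8 counted from the 5′ end. miR-21 is known for its induction through STAT3, AP-1 and NF-kB in inflamed, growing or fibrotic tissue, and for targets such as Pdcd4 and Spry1, which restrain growth and growth factor signalling. In adrenocortical cells it has been described as raised by angiotensin II and as acting on aldosterone secretion and proliferation.

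The 4 mature sequences of Mir21a and its relatives are shown 5′ to 3′ with the seed in capitals. They are from RefSeq on GRCm38.p6, where all 3 counted miR-21 genes had an entry. The first is the main guide strand, the second its partner from the other arm of the same hairpin, and the last 2 come from the relatives Mir21b and Mir21c.
miR-21a-5p: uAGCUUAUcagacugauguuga
miR-21a-3p: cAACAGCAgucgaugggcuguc
miR-21b: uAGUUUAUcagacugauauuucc
miR-21c: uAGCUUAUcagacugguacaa

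With positions counted from 1 at the 5′ end of miR-21a-5p, miR-21b differed by C4U inside the seed and by G18A, G21U and A22C behind it. It matched at 18 of 22 compared bases. miR-21c kept the seed and differed by A16G, G18A, U19C, U20A and G21A, matching at 16 of 21. Among 1738 mature miRNAs in the RefSeq table, 1 other than miR-21a-5p carried its seed AGCUUAU, and that was miR-21c. No other carried the seed of miR-21a-3p, AACAGCA. The search did not return Mir590, a miRNA listed for sharing the seed of miR-21a-5p, so carriers can be missing from it.

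On mm10, Mir21a occupies 92 bases of the minus strand of chromosome 11, 86584067 to 86584158. The miR-21a-5p arm lies at 86584120 to 86584141 and the miR-21a-3p arm at 86584082 to 86584103. In GENCODE M21 the whole hairpin falls in the last exon of transcript Vmp1-201, in its annotated 3′ UTR of 1446 bases (86583865 to 86585310). It begins 1149 bases behind the stop codon and ends 202 bases before the end of the gene. Of the 8 annotated Vmp1 transcripts this is the 1 that spans the hairpin, and the annotated start of Vmp1 lies 99.7 kb upstream. Vmp1 encodes a membrane protein of autophagosome formation. miR-21 is also known to have a promoter of its own within Vmp1, and the tables do not measure the precursor or the Vmp1 messenger RNA.

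**Figure D1:**
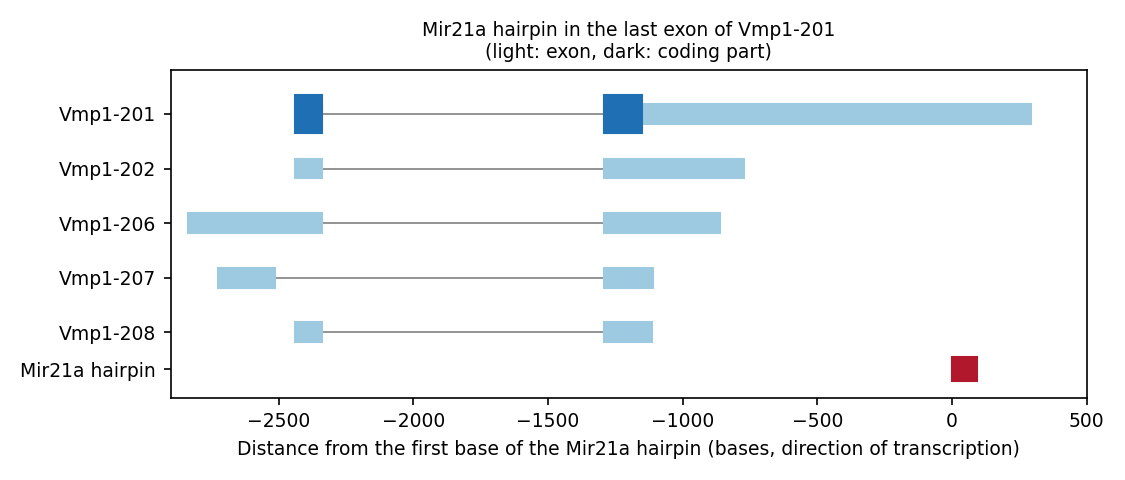
Position of the Mir21a hairpin at the end of Vmp1. The horizontal axis is the distance in bases from the first hairpin base in the direction of transcription, rows are the annotated transcripts near it, light bars are exons and dark bars coding parts; the hairpin (red) sits under the last exon of Vmp1-201, 1149 bases behind its stop codon, and under no exon of the other transcripts drawn.

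The hairpin sequence was the same in RefSeq and GENCODE. Its predicted minimum free energy was -46.2 kcal/mol, with 19 of the 22 bases of miR-21a-5p and 21 of the 22 bases of miR-21a-3p paired and 19 base pairs joining both arms. Of all 2202 miRNA genes, 69 lie wholly inside an annotated UTR of a protein-coding gene on the same strand. Mir21a ranked 1 among them and held 80.8% of their summed mean share. Mir27b, in 2010111I01Rik, followed at 0.405% ± 0.133 of counts (SD, n = 2).

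The reads of Mir21a could be placed without a near copy. Exact copies of miR-21a-5p were found in 2 of 141767 GENCODE transcripts, Mir21a itself and Vmp1-201, which is the same place in the genome. In the other 2201 hairpins the closest fit of miR-21a-5p had 4 mismatches on either strand, and that of miR-21a-3p had 7. Mir21a shared no run of 18 bases with another miRNA gene, while 1120 of the 2202 genes did, among them 6 of the 12 most abundant. A genome sequence was not used here, so copies outside annotated transcripts were not searched.

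Both relatives were at 0. Mir21b (chromosome 3, 29636744 to 29636851) and Mir21c (chromosome 8, 128278148 to 128278225) had 0 counts in each library, which allows up to 3 counts, or 1.16 CPM (counts per 1000000 counts in miRNA genes) in replicate 1 and 1.31 CPM in replicate 2. Against that limit in each library Mir21a was at least 30853-fold higher in replicate 1 and at least 16463-fold higher in replicate 2. Mir590, listed because it shares the seed of miR-21a-5p, had no match in the annotation, so its level is not known here. The counts of Mir21a join both arms, and the share of miR-21a-5p in them is not resolved. No miRNA gene lay within 100 kb of Mir21a, and the nearest, Mir301, 529 kb away, had 53 and 73 counts.

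The tables hold 9807567 reads for replicate 1 and 6993665 for replicate 2. Own-strand counts in miRNA genes made up 26.4% and 32.8% of them, 2590051 and 2291030 reads, which are the totals behind all shares below. Reads without a placement made up 40.6% and 29.8%, and reads with several placements 24.0% and 28.0%. These last are in no gene count. Genes whose mature sequence is repeated elsewhere can lose reads to that class, so the rank of Mir21a, which is not repeated, can be too high.

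Mir21a was among the most abundant miRNAs of the gland, and its share of counts differed between the libraries. It had 92558 counts in replicate 1 and 49389 in replicate 2. In replicate 1 this is 3.57% of own-strand counts, with a Wilson 95% interval from 3.551 to 3.596%. In replicate 2 it is 2.16%, with an interval from 2.137 to 2.175%. The mean share was 2.86% ± 1.00 (SD, n = 2). The intervals do not overlap, but they and the limits on counts of 0 hold for counting error alone, since each is taken from 1 library. Reads copied by PCR are no separate molecules, so even that error can be larger than given. The relative SD between the libraries was 35.0%, against a counting error of 0.329% in replicate 1 and 0.450% in replicate 2. In the mean, Mir21a stood at 28647 CPM, 214-fold above the median of 134 CPM over the 339 miRNAs with at least 10 counts in each library.

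Counted against all reads of the tables, Mir21a was 0.944% in replicate 1 and 0.706% in replicate 2. All of its counts were on its own strand. The opposite strand had 0 in both libraries, which allows up to 0.00324% and 0.00607% of its own-strand counts. Over the 2138 genes without an miRNA gene on the other strand, opposite-strand counts were 0.0181% and 0.00937% of own-strand counts, and 330 of 396 and 142 of 191 were at Mir203. Of the 45 such genes among the 50 most abundant, 40 had 0 on the opposite strand in both libraries, so in this Mir21a did not stand apart.

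**Figure D2:**
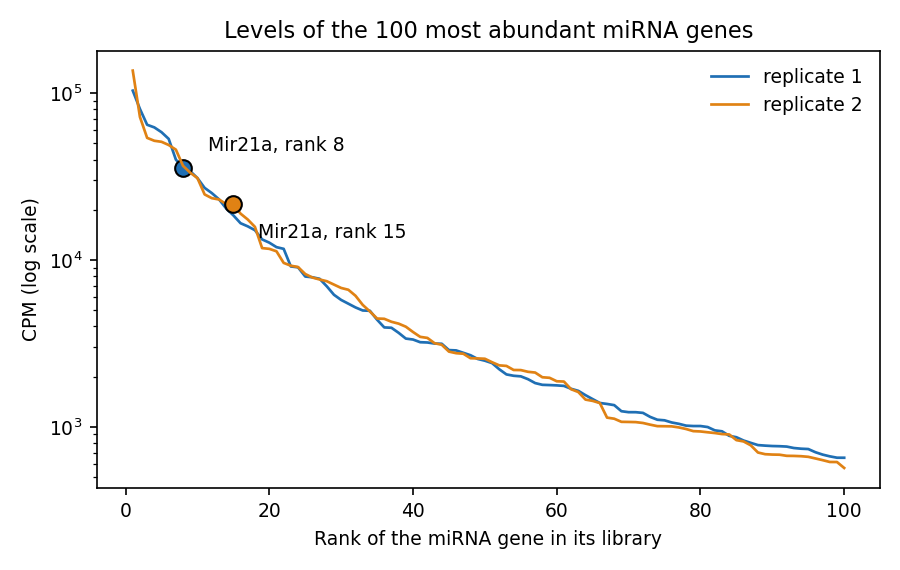
Level of the 100 most abundant miRNA genes of each library against their rank. The vertical axis is CPM on a log scale, lines are the libraries and the circled points are Mir21a; the lines nearly coincide, while Mir21a sits at rank 8 in replicate 1 and rank 15 in replicate 2.

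Mir21a ranked 8 in replicate 1 and 15 in replicate 2, and 12 by mean level. The rank was also 12 when levels were divided by the length of the hairpin gene. In both libraries 7 miRNAs were above it: Mirlet7b, Mirlet7g, Mir375, Mir378a, Mir139, Mir126a and Mirlet7d. Another 7 were below it in replicate 1 and above it in replicate 2, and 0 moved the other way. These were Mir23b, Mir23a, Mir10a, Mirlet7i, Mir127, Mir26b and Mir10b. The lists and the ranks compare miRNAs by counts, and since a read spans a whole mature miRNA the counts are not divided by mature length.

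Its neighbours in level spanned shares that overlapped with its own. Next above by mean were Mir10a, a miRNA of a Hox gene cluster, at 3.10% in replicate 1 and 3.67% in replicate 2, and the let-7 family members Mirlet7i at 3.41% and 3.10% and Mirlet7d at 4.00% and 2.48%. Next below were the smooth muscle miRNA Mir143 at 2.71% and 1.75%, the imprinted Mir127 at 2.04% and 2.17%, and Mir26b at 1.85% and 2.31%. The range spanned by Mir21a overlapped with that of all 6, and in all with 10 of the other tested genes. Within each library the order of Mir21a and Mirlet7d was the same, as was that of Mir21a and Mir143, while Mir10a, Mirlet7i, Mir127 and Mir26b changed sides. In replicate 2 the Wilson 95% interval of Mir127 was 2.15 to 2.19%, which overlaps that of Mir21a.

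**Figure D3:**
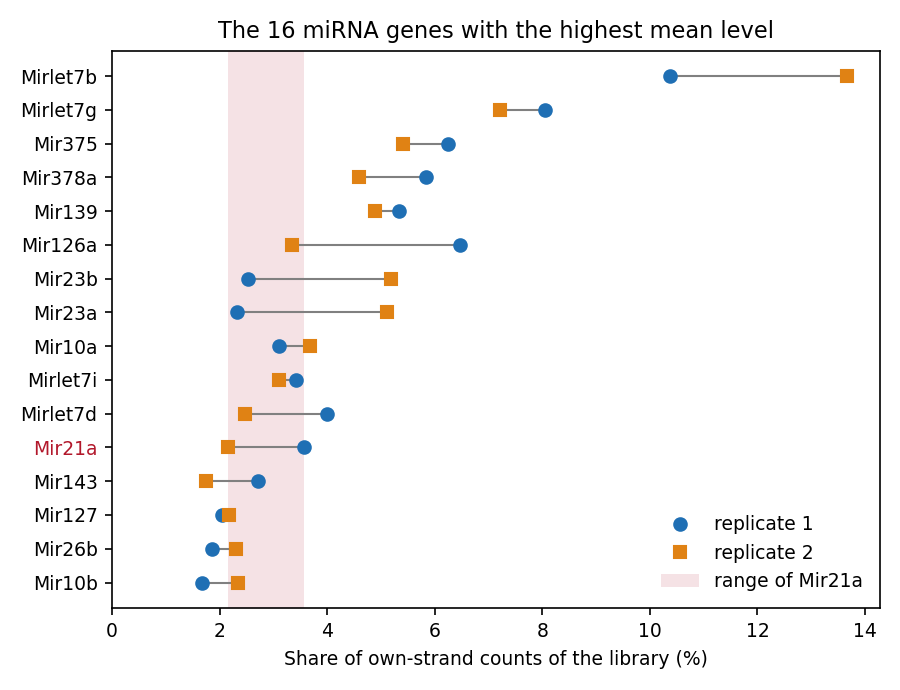
Share of own-strand counts in each library for the 16 miRNA genes with the highest mean level. The horizontal axis is percent of the library, circles are replicate 1 and squares replicate 2, and the shaded band is the range of Mir21a from 2.16% to 3.57%, into which the ranges of 10 other genes reach.

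The libraries were compared gene by gene on raw counts, by an exact binomial test conditional on each gene's sum (two-sided). It has counting error as its only source of spread and compares these libraries, not conditions. The log2 ratio of Mir21a, replicate 2 over replicate 1, was -0.69 (exact 95% interval -0.71 to -0.68), so it was 1.62-fold higher in replicate 1 (1.60 to 1.63). Its adjusted p was below the smallest number the software represents. At an adjusted p of 0.05, 62.7% of the 367 tested miRNAs differed, 32.4% higher in replicate 1 and 30.2% higher in replicate 2, and among the 50 most abundant 49 did. At the depth of Mir21a a call is thus common to nearly all genes.

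By size, the difference of Mir21a was above the middle of the table. The median absolute log2 ratio was 0.46 over the 367 tested miRNAs and 0.35 over the 50 most abundant. A larger absolute ratio was found for 124 of the 367 (33.8%) and for 8 of the 50. With the sign kept, 3 of the 50 had a lower ratio than Mir21a. The median log2 ratio of all tested miRNAs was 0.02. It shifted to -0.08 with DESeq2 size factors and to -0.12 with TMM factors from all genes, where 139 were higher in replicate 1 and 85 in replicate 2, against 119 and 111. The ratio of Mir21a was then -0.78 and -0.82. Since such a scaling shifts all genes alike, its distance of 0.71 below the median on the log2 scale is the same by construction.

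Among the 50 most abundant miRNAs, the 3 whose log2 ratio over the 2 libraries was closest to that of Mir21a were Mirlet7d, Mir27b and Mir22. Mirlet7d, of the let-7 family, had a log2 ratio of -0.66, 0.04 from that of Mir21a. Mir27b, of the Mir23b cluster, had 12915 and 7115 counts and a log2 ratio of -0.65, 0.05 away. Mir23b itself was higher in replicate 2, at a log2 ratio of 1.08. Mir22, described in senescence and in muscle, had 41262 and 21194 counts and a log2 ratio of -0.75, 0.05 away. As a ratio within each library, Mirlet7d was 1.12 and 1.15 times Mir21a and Mir22 was 0.446 and 0.429 times Mir21a. With 2 libraries a pattern is a single ratio, and such likeness is a description.

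**Figure D4:**
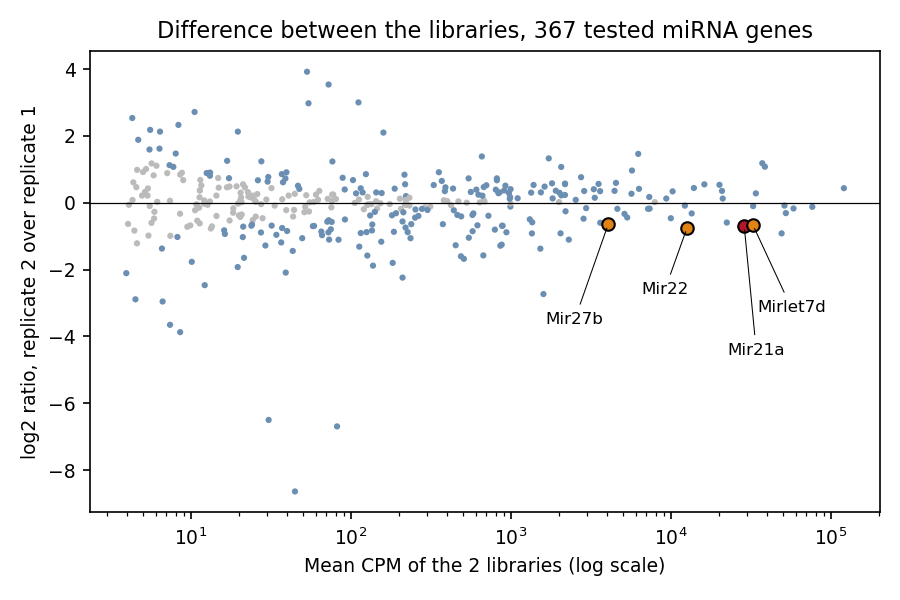
Log2 ratio, replicate 2 over replicate 1, against mean CPM on a log scale for the 367 tested miRNA genes. Blue points passed the exact test and grey points did not; Mir21a (red) lies at -0.69 beside Mirlet7d, Mir27b and Mir22 (orange), and the lowest point, Mir208a, had 0 counts in replicate 2 and is drawn with a prior count of 0.5.

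Mir21a was then placed among miRNAs of the settings it is known from, in 3 lists that all contain it. It had the highest mean level in each. It made up 41.3% of the summed level of the adrenal hormone list, 81.4% of the inflammation list and 53.7% of the fibrosis list. Of the measured members of these lists 7 of 21, 5 of 12 and 7 of 13 share 18 bases with another gene and can lose reads that have several placements. Mir21a shares none, so these shares can be too high. The lists share members, so their counts are not separate results. Within each list some members also lie close together on a chromosome, such as Mir132 and Mir212, Mir221 and Mir222, or Mir29a and Mir29b-1. A count of members is thus not a count of separate loci.

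The adrenal hormone list holds miRNAs described as responding to angiotensin II or ACTH or as acting on steroid synthesis. All 20 others of its measured members had the summed count of at least 20 that testing needed. Of these, 11 were higher in replicate 1, as Mir21a was, and 5 in replicate 2, against 32.4% and 30.2% of all tested. Their median log2 ratio was -0.40, beside 0.02 over all tested. After Mir21a the highest were Mir10b, a Hox cluster miRNA with 43081 and 53854 counts (log2 ratio 0.54), Mir125a with 20424 and 15588 (-0.18) and Mir320 with 14186 and 16331 (0.42). The 5 higher in replicate 2 became 3 with DESeq2 size factors and 2 with TMM factors from all genes, Mir21a's own direction being the same in both. Mir125a moved with Mir21a, and Mir10b and Mir320 moved against it.

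The inflammation list holds miRNAs induced through NF-kB, STAT3 or AP-1. Of 11 others, 7 were tested, with 4 higher in replicate 1, 2 higher in replicate 2 and a median log2 ratio of -0.22. In the whole table tested these were 32.4%, 30.2% and 0.02. The 2 became 1 with either of those scalings. Mir132, induced by CREB as well, had 5738 and 1908 counts (-1.37), Mir221, a regulator of cell cycle inhibitors, 4012 and 2452 (-0.50), and Mir31 3800 and 4900 (0.58). Mir146, the miR-146a gene and a feedback inhibitor of NF-kB signalling, had 2620 and 2224 counts and a log2 ratio of -0.02 (exact 95% interval -0.10 to 0.06), which did not pass (adjusted p = 0.678, exact test). It passed at -0.11 with DESeq2 size factors (adjusted p = 0.0108, exact test).

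The fibrosis list holds miRNAs acting for or against scarring. Of 12 others, 11 were tested, with 9 higher in replicate 1, 2 higher in replicate 2 and a median log2 ratio of -0.89. The whole table tested gave 32.4%, 30.2% and 0.02 for these 3 quantities. With a minimum summed count of 200, 6 members including Mir21a were tested, 5 higher in replicate 1 and 1 in replicate 2. Mir29a, which represses collagen genes, had 30245 and 18904 counts (-0.46) and Mir30a 20007 and 15208 (-0.18). Mir433, of the imprinted Dlk1-Dio3 region, had 9486 and 12342 (0.59). The list thus held miRNAs described on either side of fibrosis, and Mir21a and Mir29a moved the same way.

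**Figure D5:**
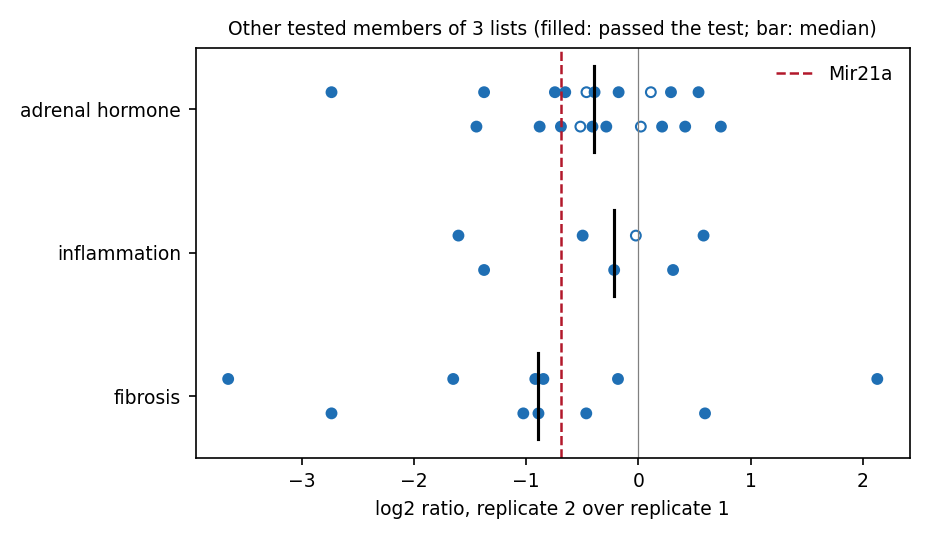
Log2 ratios, replicate 2 over replicate 1, of the tested members other than Mir21a in 3 lists. Filled points passed the exact test, bars are the medians (-0.40, -0.22 and -0.89 from top to bottom) and the dashed line is Mir21a at -0.69; genes on several lists are drawn in each.

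Markers of several cell types moved between the same libraries, and in bulk tissue fewer cells of a type and less RNA per cell cannot be told apart. The counts below stand against 32.4% of all tested miRNAs higher in replicate 1 and 30.2% in replicate 2. Endothelial miRNAs were higher in replicate 1 in 2 of 2 tested and summed to 64764 and 33414 CPM, nearly all Mir126a. Mir126b, with 31 and 3 counts, lies inside the Mir126a gene and is read from the other strand. The same reads fill the antisense column of Mir126a, so it is no separate marker. Fibroblast and smooth muscle miRNAs were higher in replicate 1 in 4 of 5 tested, led by Mir143. They summed to 31248 and 20689 CPM, of which Mir143 made up 27092.1 and 17510.5. Mir214 had 7200 and 933 counts, while Mir199a-2, with 36 and 2, and Mir199b, with 29 and 12, had few. Mir145a was higher in replicate 2 at a log2 ratio of 1.07. Leukocyte miRNAs, led by Mir146 and Mir342, summed to 3045 and 2955 CPM, with 1 of 6 higher in each replicate; with TMM factors from all genes these were 4 higher in replicate 1 and 0 in replicate 2. Mir21a was 0.552 and 0.645 times the endothelial sum, 1.14 and 1.04 times the mesenchymal sum, and 11.7 and 7.29 times the leukocyte sum. Of these 3 sums the leukocyte one differed least between the libraries.

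Against the same shares of all tested (32.4% and 30.2%), neuroendocrine miRNAs, led by Mir375 and Mir7b, were higher in replicate 1 in 5 of 5 tested. They summed to 66586 and 56988 CPM, of which Mir375, at a log2 ratio of -0.17, made up 62443 and 54040. Of the tested members, Mir7-1, Mir7-2 and Mir7b belong to the same family. Mir9-2, Mir124a-1, Mir124a-2 and Mir124a-3 were at 0 in both libraries. Of this list 8 of 11 share 18 bases with another gene, and reads with several placements are not counted, so a 0 does not show absence. Red blood cell miRNAs, led by Mir451a and Mir486, summed to 902 and 490 CPM, with 2 of 3 higher in replicate 1. These 2 were Mir451a, which made up 740 and 349 CPM, and Mir144, which lies close to it on chromosome 11. They are thus not separate loci. Mir486, with 183 and 187 counts and a log2 ratio of 0.25, did not pass. Striated muscle miRNAs, led by Mir206 and Mir499, summed to 598 and 81.2 CPM, with 4 of 4 tested higher in replicate 1. Mir206 had 737 and 182 counts, Mir499 420 and 3, Mir208a 231 and 0, and Mir208b 157 and 1. The sum in replicate 2 was thus nearly all Mir206, at 79.4 CPM. Mir1a-1, Mir133a-1, Mir133a-2 and Mir133b were at 0 in both. In this list 5 of the 9 share 18 bases with another gene, with the same limit on a 0. Epithelial miRNAs, led by Mir203 and Mir200c, summed to 1192 and 1871 CPM, with 4 of 5 tested higher in replicate 2. Mir203 made up 1147 and 1618 CPM of these sums. Mir200c had 65 and 452 counts, while Mir200b, with 19 and 73, and Mir141, with 6 and 24, had few. The other tested member, Mir429, went the other way with 19 and 8 counts (log2 ratio -0.98) and did not pass. Mir200c and Mir141 lie close together on a chromosome, as do Mir200b and Mir429, so these are not separate loci. The part of these cell types in the difference of Mir21a was not tested.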

How the data were processed

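Each library has a deposited table of raw read counts for each miRNA gene, whose 3 columns ignore strand, take the gene's own strand and take the opposite strand. The build was mm10 and the annotation GENCODE M21, per the deposited notes. The aligner and the counter were not given in the sources used here. The own-strand column was taken as the stranded one with the larger total in both libraries. mm10 is C57BL/6J sequence, so reads from CAST/EiJ alleles may be missing, which was not tested. Arms of a hairpin are counted together. The first 4 rows, which name no gene, stayed out of library sizes. All 2202 identifiers matched GENCODE M21.

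Members, lists and tests were chosen with earlier results of these data known. The exact conditional binomial test used library sizes scaled by edgeR 4.0.16 TMM factors (1.01 and 0.987, from genes with a summed count of at least 20), with Benjamini-Hochberg adjustment over the 367 miRNA genes with that count. No quasi-likelihood fit is possible with 1 library on each side. Ratios used a prior count of 0.5. The test was checked on data simulated with counting error alone, the only spread that it assumes. With 2202 genes drawn for this comparison it recovered 98.0% of tested genes changed by 2 on the log2 scale. It recovered 84.7% of those changed by 1, and called 2.66% of unchanged ones. That last rate is set by the simulation and is no rate of false calls for libraries that differ beyond counting error. Hairpins were folded with ViennaRNA 2.7.2.

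Named genes were Mir21a and its relatives, the 3 genes on either side by mean level, the 3 of the 50 most abundant with the closest log2 ratio, the 4 highest of each list, the 2 highest of each marker list, and genes sharing sequence or within 100 kb. A further list is not reported here. Alternatives were DESeq2 1.42.0 size factors, total counts, strand ignored, other count minimums (1 and 200), a prior count of 5, other denominators and each library alone.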

Additional observations from a re-analysis of the deposited data

How the results depend on the processing

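No paired analysis was possible because there is 1 group. The log2 ratio of Mir21a lay between -0.82 and -0.69 over 7 alternatives, higher in replicate 1 in each. The count minimums and the prior count of 5 could hardly move it at its depth, so the other scalings and the strand-ignored column are the alternatives that bear on it, and adjusted p values were too small to tell them apart. Its share ranged from 2.16 to 3.57% with either library alone and its rank from 8 to 15. The share depends on what it is divided by: it was 0.825% of all reads in the tables, 6.32% without the 10 most abundant genes and 4.76% without genes that share 18 bases, by construction of the denominators. Counts of members past the test also moved. Higher in replicate 2, the adrenal hormone list went from 5 to 3 with DESeq2 size factors and to 2 with TMM factors from all genes (an alternative chosen after seeing the data), the inflammation list from 2 to 1 and 1, and the leukocyte list from 1 to 0 and 0. Higher in replicate 1, the leukocyte list went from 1 to 2 and 4. A minimum summed count of 200, which tests fewer genes, left the fibrosis list with 5 higher in replicate 1 and 1 in replicate 2, the endothelial list with 1, the mesenchymal list with 2 and, higher in replicate 2, the epithelial list with 2. Mir342, at 0.01, reversed to -0.0820 with DESeq2 size factors, -0.0271 with total counts, -0.0190 with strand ignored and -0.12 with TMM factors from all genes. It passed the test with the last of these and not with the others, so its call depends on the scaling as well. Mir146 also passed with TMM factors from all genes, at -0.15. Mir127 reversed from 0.13 to -0.00681 with that scaling (adjusted p = 0.541, exact test). The cause was not tested. Depth does not limit Mir21a, with 49389 counts in the shallower library; the number of libraries does.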
